A study of Mus musculus with 8 samples.

Results

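The Krüppel-like factors described here are 10 zinc finger transcription factors whose mRNA was counted in a cell culture model of pancreatic ductal adenocarcinoma (PDAC): *Klf2*, *Klf3*, *Klf4*, *Klf5*, *Klf6*, *Klf7*, *Klf9*, *Klf10*, *Klf11* and *Klf13*. They were taken by gene name, with no use of their values, from a table of 53465 genes, and all 10 passed the filter on low counts that left 14301 genes for testing. The cells were B73 and B87, lines grown from the primary pancreatic tumors of KC-shSmad4 mice. In these mice a pancreas-directed Cre (Ptf1a-Cre) switches on the transactivator rtTA3 with the red reporter mKate2, and rtTA3 drives a GFP-linked shRNA against *Smad4* only while doxycycline (Dox) is present. All groups therefore carried rtTA3 and the shRNA transgene. Smad4-off cells stayed on Dox (the DoxOn libraries), and Smad4-on cells had spent 5 days without it (the DoxOff libraries), so Dox itself changed together with Smad4. Each state was then exposed for 24 h either to 100 pM recombinant mouse TGFβ1 or to 2.5 µM SB505124, an inhibitor of the type I TGFβ receptor, and no group was left without an agent. The 4 groups held 1 library per line, 8 in all. Each line came from 1 tumor, and the main tests take out the constant difference between the lines. Their p-values rest on how far the 2 lines disagree in their changes, and do not extend to other tumors. Fits with no block for the line also count the constant difference as spread.

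KLF proteins bind GC-rich and CACCC-type DNA through a conserved array of C-terminal zinc fingers, and they differ in the rest of the protein, which recruits coactivators or corepressors. KLF2, KLF4, KLF5, KLF6 and KLF7 are known mainly as activators that can also repress, KLF3 is a repressor that works with CtBP proteins, and KLF9, KLF10, KLF11 and KLF13 bind the Sin3 corepressor. KLF4 and KLF5 are regulators of epithelial identity in the gut and pancreas, and KLF10 and KLF11 were first described as genes induced early by TGFβ, the pathway whose nuclear signal SMAD4 carries.

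The start regions of 4 members are printed here because they belong to genes that moved in opposite directions below: *Klf6* and *Klf2*, which were higher with TGFβ1, and *Klf3* and *Klf4*, which were lower. Each window spans 250 bases before to 50 bases after the RefSeq transcript start on GRCm38.p6, printed 5′ to 3′ along the gene's own strand, and capitals mark the GC box GGGCGG in either orientation, a sequence that KLF and SP proteins bind. The windows are chr13:5861239-5861538 on the plus strand for *Klf6*, chr8:72318812-72319111 on the plus strand for *Klf2*, chr5:64803271-64803570 on the plus strand for *Klf3* and chr4:55532426-55532725 on the minus strand for *Klf4*.
Klf6: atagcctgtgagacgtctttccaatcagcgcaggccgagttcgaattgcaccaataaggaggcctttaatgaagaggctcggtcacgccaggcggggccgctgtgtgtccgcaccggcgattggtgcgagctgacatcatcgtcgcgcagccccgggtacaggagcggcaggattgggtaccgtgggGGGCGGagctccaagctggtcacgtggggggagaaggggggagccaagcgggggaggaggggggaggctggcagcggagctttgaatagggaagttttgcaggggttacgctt
Klf2: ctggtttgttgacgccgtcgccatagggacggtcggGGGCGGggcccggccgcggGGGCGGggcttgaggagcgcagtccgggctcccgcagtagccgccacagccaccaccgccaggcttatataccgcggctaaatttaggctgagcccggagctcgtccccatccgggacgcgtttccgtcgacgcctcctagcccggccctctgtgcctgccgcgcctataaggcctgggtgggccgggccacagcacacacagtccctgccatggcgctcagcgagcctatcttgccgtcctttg
Klf3: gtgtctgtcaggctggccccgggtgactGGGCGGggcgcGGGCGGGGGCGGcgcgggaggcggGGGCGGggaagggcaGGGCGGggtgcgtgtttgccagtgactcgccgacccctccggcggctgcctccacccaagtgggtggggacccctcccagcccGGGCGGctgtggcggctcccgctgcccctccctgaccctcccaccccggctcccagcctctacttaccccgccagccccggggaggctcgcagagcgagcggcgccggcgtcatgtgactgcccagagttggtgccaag
Klf4: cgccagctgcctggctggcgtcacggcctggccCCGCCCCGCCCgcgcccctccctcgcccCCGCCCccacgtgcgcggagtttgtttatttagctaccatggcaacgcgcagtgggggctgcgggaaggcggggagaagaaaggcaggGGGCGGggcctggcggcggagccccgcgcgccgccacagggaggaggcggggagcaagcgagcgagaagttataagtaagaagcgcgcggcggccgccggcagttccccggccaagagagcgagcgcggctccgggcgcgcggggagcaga
Of the 10 members, 8 had a window in the RefSeq table, and *Klf5* and *Klf10* had none. The GC box was found in 7 of the 8 windows, against 35.7% of all 32851 windows in the table, with 6 matches in *Klf3*, 4 in *Klf4*, 2 in *Klf2* and 1 in *Klf6*. It did not part the members by direction. The short SMAD box CAGAC, searched on both strands, was present in 1 of 8 windows (*Klf3*) and in 49.6% of all windows. The GC-rich SMAD element, searched as GGCGC or GGCCG on both strands and able to overlap a GC box, was present in 7 of 8 windows, and 48.3% of all windows held it. GC content of the members' windows ran from 58.3% in *Klf7* to 77.7% in *Klf11*, above the median of 52.7% for all windows. These are matches of letters only and say nothing of binding in these cells.

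Library depth ran from 18389235 to 23440550 counts, at which a floor of 3 counts corresponds to 0.125 to 0.162 CPM (counts scaled to library size with TMM factors). The 10 members together took 0.0856 to 0.121% of the counts of a library, and the smallest count of any member in any library was 81 (*Klf2*). *Smad4* stood at 33.7 to 35.5 CPM in the 4 Smad4-off libraries and at 97.4 to 117 CPM in the 4 Smad4-on libraries, which matches the labels. Of the 7 carcinoma markers, *Krt8*, *Krt18* and *Krt19* were abundant in both lines. Group means ran from 60.2 to 275 CPM for *Cdh1* and from 33.3 to 58.1 CPM for *Sox9*. In B87, 5 of the 7 were lower than in B73 (edgeR adjusted p under 0.05), against 9.68% of all genes. The median log2 difference was -1.84, against -0.01 for all genes tested. *Epcam* was near the floor, at 0.145 to 2.11 CPM, and *Krt7* was at 12.6 to 28.7 CPM in B87 against 474 to 649 CPM in B73. Defining markers of other cells were low: *Ptprc* did not exceed 0.153 CPM, while the sum of 3 leukocyte genes reached 6.29 CPM in B73, all of it *Cd68*. The sum of 3 fibroblast genes reached 6.49 CPM, and its *Pdgfra* stood at 0.648 to 0.898 CPM in B73 and 3.52 to 6.41 CPM in B87. In every library 2 of 3 acinar genes and all 3 islet genes were at 0, and the sum of 3 endothelial genes reached 26.0 CPM in 1 Smad4-off TGFβ1 library of B87. The part of these signals in the results below was not tested. In a bulk library, a change in the number of cells that express a gene cannot be told apart from a change in its RNA per cell.

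*Klf6* was the most abundant member per length of transcript, followed by *Klf4* and *Klf5*, and *Klf11* was the least. Divided by the exon length in the table, the mean over 8 libraries was 78.7 ± 30.4 CPM per kb for *Klf6* and 42.7 ± 24.5 for *Klf4* (SD, n = 8). A middle tier held *Klf5* (18.9 ± 6.15), *Klf13* (16.5 ± 5.42), *Klf3* (14.9 ± 4.39), *Klf9* (12.3 ± 1.29) and *Klf10* (9.65 ± 3.01), on the same scale. *Klf2* (4.20 ± 2.01), *Klf7* (3.25 ± 1.31) and *Klf11* (2.46 ± 0.287) stood lowest. The ranges of all 9 neighboring pairs in this order overlapped across libraries, and the order of a pair was the same in all 8 libraries for 1 pair, *Klf10* above *Klf2*. *Klf5* exceeded *Klf13* in 4 of 8 libraries and *Klf13* exceeded *Klf3* in 4 of 8, so these 3 had no fixed order. The length of *Klf9* in the table, 3263 bases, is shorter than the 4815 exon bases of GENCODE M21, while the other 9 lengths were equal, so the rank of *Klf9* is less certain.

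The mixture of KLF mRNAs differed between the treatments. *Klf6* made up 27.9 to 32.6% of the summed per-length level of the 10 genes in the 4 SB505124 libraries and 38.5 to 58.0% in the 4 TGFβ1 libraries. *Klf4* made up 21.9 to 35.4% with SB505124 and 6.31 to 18.0% with TGFβ1. Neither range overlapped between treatments. In 2 libraries with SB505124, Smad4-off B87 and Smad4-on B73, *Klf4* was the leading member. In the Smad4-on TGFβ1 library of B73 it ranked behind *Klf6*, *Klf13* and *Klf5*, and *Klf6* led all 4 TGFβ1 libraries. The share of *Klf13* went from 4.76 to 6.72% with SB505124 to 8.29 to 12.4% with TGFβ1. The per-length ratio of *Klf4* to *Klf5* had a range of 0.899 to 3.24 over the B73 libraries, which took in the B87 range of 2.08 to 3.24.

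**Figure D1:**
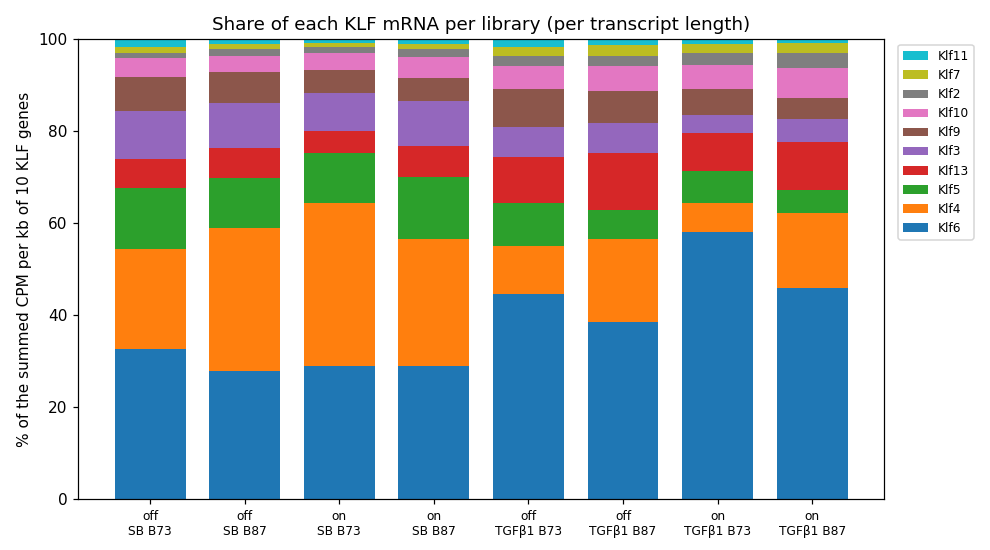
Share of each KLF mRNA in the summed CPM per kb of the 10 genes (y axis, percent), with 1 bar per library ordered by treatment, Smad4 state and line. The *Klf6* segment at the base is taller in the 4 TGFβ1 libraries (38.5 to 58.0%) than in the 4 SB505124 libraries (27.9 to 32.6%), and the *Klf4* segment above it is shorter.

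The first comparison asked how KLF expression differed between TGFβ1 and SB505124 when Smad4 was present. With no untreated group, a rise with TGFβ1 cannot be told apart from a fall with SB505124, here and below. In Smad4-on cells 8 of the 10 members changed (edgeR quasi-likelihood test with line as a term, adjusted p under 0.05): *Klf2*, *Klf6*, *Klf7*, *Klf10* and *Klf13* rose, *Klf3*, *Klf4* and *Klf5* fell, and *Klf9* and *Klf11* did not pass. Over all 14301 genes, 15.6% rose and 17.6% fell in this comparison. The changes of 3 members, *Klf2*, *Klf4* and *Klf7*, exceeded 2-fold, the additional limit used in the study, against 13.9% of all genes. The median log2 change was 0.35 over the 10 members and -0.02 over all genes tested.

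*Klf6*, an activator also studied as a tumor suppressor candidate, gave the strongest evidence among the genes that rose. Smad4-on cells with SB505124 had 329 (B73) and 249.6 (B87) CPM, and those with TGFβ1 had 601 and 490.0 CPM. The treatment groups did not overlap, and the log2 change was 0.92 ± 0.10 (SE, n = 2 libraries a group, edgeR adjusted p = 0.000701), or 1.89-fold. It was 0.87 in B73 and 0.97 in B87, almost the same size in the lines. With 2 libraries a group, separation of groups can also occur without a difference, and its share over all genes was not counted.

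*Klf2*, best known as a flow-responsive factor of endothelium and a quiescence factor of lymphocytes, was scarce but rose 2.14-fold. It had 5.73 (B73) and 6.41 (B87) CPM with SB505124 against 10.8 and 15.5 CPM with TGFβ1, a log2 change of 1.10 ± 0.18 (edgeR adjusted p = 0.00390). *Klf7*, a factor known from neurons and fat cells, stood at 18.0 and 18.8 CPM with SB505124 and at 39.9 and 39.6 CPM with TGFβ1. Both lines were thus nearly equal within each treatment, and the log2 change was 1.11 ± 0.16 (edgeR adjusted p = 0.00234).

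The Sin3-binding members did not move together. *Klf10*, the TGFβ-inducible early gene, rose from 40.7 and 36.4 CPM (B73 and B87) to 52.0 and 64.2 CPM, a log2 change of 0.59 ± 0.15 (edgeR adjusted p = 0.0208). *Klf13* rose from 92.5 and 99.2 CPM to 147 and 189 CPM, a log2 change of 0.80 ± 0.10 (edgeR adjusted p = 0.00174). *Klf11* and *Klf9* showed no detectable change: *Klf11* was at 11.1 and 9.23 CPM with SB505124 and at 10.9 and 10.2 CPM with TGFβ1 (log2 change 0.06 ± 0.15, edgeR adjusted p = 0.787). For *Klf9*, a target of steroid and thyroid hormone receptors in other tissues, the levels were 42.3 and 32.2 CPM against 42.8 and 37.6 CPM (log2 change 0.12 ± 0.11, edgeR adjusted p = 0.451), and the groups overlapped for both genes.

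The members that fell were the repressor *Klf3* and the epithelial factors *Klf4* and *Klf5*. *Klf3* went from 236 (B73) and 218 (B87) CPM with SB505124 to 104 and 136 CPM with TGFβ1, and *Klf5* from 146 and 135 CPM to 86.0 and 63.3 CPM. Neither pair of groups overlapped, which with 2 libraries a group can also occur without a difference. The log2 change was -0.93 ± 0.13 for *Klf3* (edgeR adjusted p = 0.00201) and -0.93 ± 0.11 for *Klf5* (edgeR adjusted p = 0.00127), about 1.91-fold lower for both genes.

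*Klf4* had the largest fitted change and the least certain. B73 had 278 CPM with SB505124 and 45.4 CPM with TGFβ1, whereas B87 had 165 and 120.4 CPM. The log2 change was -2.61 in B73 and -0.46 in B87, and the fitted value was -1.60 ± 0.45 (edgeR adjusted p = 0.0336). Without the line as a block it was -1.42 (edgeR adjusted p = 0.141), and the call was also lost without any 1 of 4 B73 or B87 libraries: Smad4-on SB505124 B73, Smad4-on TGFβ1 B73, Smad4-off TGFβ1 B73 and Smad4-off TGFβ1 B87 (7 members then passed in place of 8). The call on *Klf10* was lost without either B87 Smad4-on library.

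**Figure D2:**
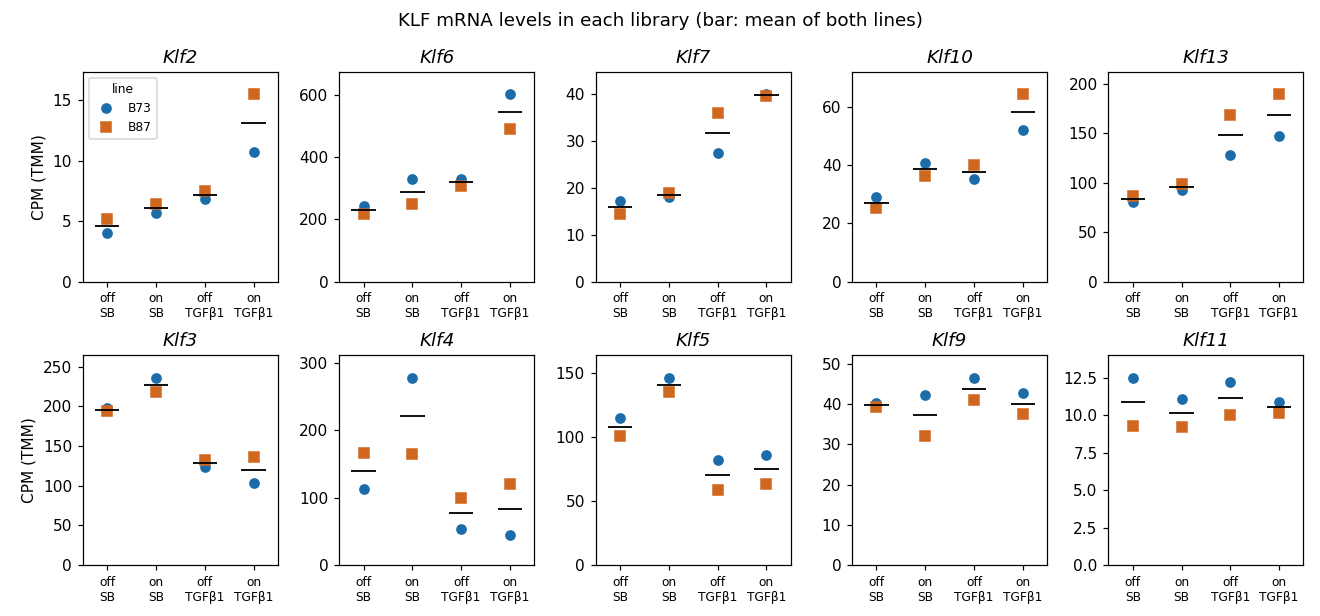
Levels of the 10 KLF mRNAs in each library, in CPM on linear axes that start at 0, with 1 panel per gene. Circles are line B73, squares are line B87 and bars are the mean of both, for Smad4-off and Smad4-on cells under SB505124 (SB) or TGFβ1. *Klf6* in the Smad4-on TGFβ1 libraries (601 and 490.0 CPM) lies above its other 6 libraries, and *Klf4* spans 45.4 to 278 CPM in B73.

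In Smad4-off cells 5 members differed between the same treatments. *Klf6*, *Klf7* and *Klf13* rose, against 6.96% of all genes, and *Klf3* and *Klf5* fell, against 6.24% of all genes, and none of the 5 passed the 2-fold limit that 5.93% of genes passed. The median log2 change was 0.30 over the members and -0.02 over all genes. The 5 calls depended on modeling the line: *Klf7* alone passed with no block for the line in edgeR, and *Klf3*, *Klf7* and *Klf13* in DESeq2 without the line. No member passed when the Smad4-off TGFβ1 library of B87 was left out, 1 passed (*Klf13*) without the Smad4-off SB505124 library of B87, and 3 passed (*Klf5*, *Klf7*, *Klf13*) without either Smad4-off library of B73.

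*Klf7* and *Klf13* had the largest increases. *Klf7* stood at 17.2 (B73) and 14.5 (B87) CPM with SB505124 and at 27.5 and 35.9 CPM with TGFβ1 (log2 change 0.99 ± 0.16, edgeR adjusted p = 0.00927). *Klf13* stood at 81.1 and 86.8 CPM against 128 and 169 CPM (log2 change 0.81 ± 0.10, edgeR adjusted p = 0.00460). The log2 changes of *Klf13* in the Smad4 states, 0.80 and 0.81, came from separate pairs of libraries.

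*Klf6* went from 241 and 217 CPM to 331 and 306 CPM in Smad4-off cells, a log2 change of 0.48 ± 0.09 (edgeR adjusted p = 0.0215). *Klf3* fell from 198 and 195 CPM to 124 and 133 CPM (log2 change -0.61 ± 0.12, edgeR adjusted p = 0.0230). *Klf5* fell from 115 and 100.5 CPM to 82.3 and 58.6 CPM (log2 change -0.63 ± 0.11, edgeR adjusted p = 0.0146). For each of these 3 genes the treatment groups did not overlap. With 2 libraries a group this can also occur without a difference, and its share over all genes was not counted.

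The other 5 members did not pass in Smad4-off cells. *Klf2* (4.04 and 5.18 CPM against 6.86 and 7.52 CPM) had a log2 change of 0.65 ± 0.18 (edgeR adjusted p = 0.0602) and *Klf10* (29.0 and 25.2 CPM against 35.1 and 39.9 CPM) one of 0.47 ± 0.15 (edgeR adjusted p = 0.0847). The treatment groups did not overlap for either. *Klf4* (113 and 167 CPM against 54.0 and 99.3 CPM) had a log2 change of -0.89 ± 0.43 (edgeR adjusted p = 0.231), with no overlap between its groups. Such separation can also occur without a difference, and its share over all genes was not counted. *Klf9* (0.14 ± 0.11, edgeR adjusted p = 0.461) and *Klf11* (0.04 ± 0.15, edgeR adjusted p = 0.903) had the smallest log2 changes, at 39.2 to 46.6 CPM and 9.27 to 12.5 CPM over these 4 libraries.

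**Figure D3:**
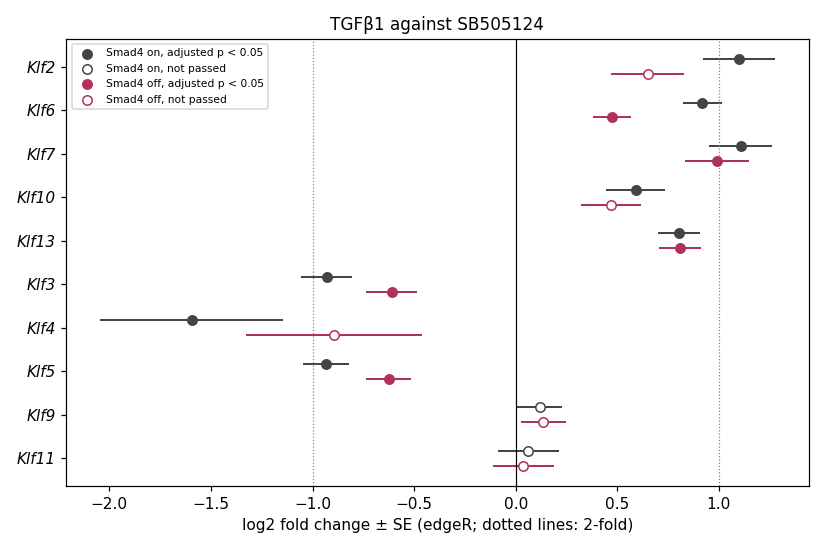
Fitted log2 fold change of TGFβ1 against SB505124 for the 10 members (x axis), with SE bars, in Smad4-on (gray) and Smad4-off (red) cells. Filled symbols passed an adjusted p of 0.05 in edgeR (8 and 5 members), open symbols did not, and dotted lines mark 2-fold.

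Whether the response to TGFβ1 differed between Smad4 states was tested as an interaction. None of the 10 members passed in edgeR, 1 (*Klf6*) had an unadjusted p under 0.05, as had 10.4% of all genes, and none passed in DESeq2. Over all genes 28, or 0.196%, passed by adjusted p. The interaction of *Klf6* was a log2 difference of 0.44 ± 0.13, or 0.41 in B73 and 0.48 in B87 (edgeR adjusted p = 0.303). It was -0.31 ± 0.16 for *Klf5* (edgeR adjusted p = 0.563) and -0.70 ± 0.62 for *Klf4* (edgeR adjusted p = 0.763), for which B73 gave -1.56 and B87 gave 0.30. The counts of 8 and 5 members above are thus not shown to differ between Smad4 states.

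The next comparison asked what the presence of Smad4 changed at a fixed treatment. Under TGFβ1, *Klf2* and *Klf6* were higher in Smad4-on cells, and no member was lower. Of all genes 3.52% were higher, 3.28% lower, and 3.12% changed over 2-fold, which no member did. *Klf6* was at 331 and 306 CPM (B73 and B87) in Smad4-off and 601 and 490.0 CPM in Smad4-on cells, a log2 change of 0.77 ± 0.09 (edgeR adjusted p = 0.00707). *Klf2* was at 6.86 and 7.52 CPM against 10.8 and 15.5 CPM, a log2 change of 0.85 ± 0.17 (edgeR adjusted p = 0.0360). Both genes were higher in both lines.

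*Klf10* lay just outside the threshold, at 35.1 and 39.9 CPM in Smad4-off and 52.0 and 64.2 CPM in Smad4-on cells (log2 change 0.63 ± 0.15, edgeR adjusted p = 0.0502). It passed with the size factors of DESeq2 (adjusted p = 0.0496 in edgeR) and in DESeq2 itself with the line (adjusted p = 0.00826). Neither *Klf2* (edgeR adjusted p = 0.231) nor *Klf6* (edgeR adjusted p = 0.156) passed in edgeR with no block for the line. *Klf6* held its call without any single library except the Smad4-off TGFβ1 library of B73, without which no member passed. *Klf2* lost its call when any 1 of the 8 libraries was left out.

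The other 7 members did not pass under TGFβ1. Their log2 changes were 0.33 ± 0.15 for *Klf7* (edgeR adjusted p = 0.244), 0.18 ± 0.10 for *Klf13* (edgeR adjusted p = 0.331) and 0.09 ± 0.11 for *Klf5* (edgeR adjusted p = 0.692). They were -0.11 ± 0.12 for *Klf3*, -0.13 ± 0.11 for *Klf9*, -0.07 ± 0.15 for *Klf11* and 0.07 ± 0.43 for *Klf4*. *Klf4* had 54.0 CPM without and 45.4 CPM with Smad4 in B73 but 99.3 and 120.4 CPM in B87, so its lines pointed in opposite directions.

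Under SB505124, with receptor signaling inhibited, no member passed in edgeR or DESeq2, and 3 (*Klf5*, *Klf6*, *Klf10*) had an unadjusted p under 0.05 in edgeR, as had 12.6% of all genes. By adjusted p, 0.972% of all genes were higher and 0.622% lower in Smad4-on cells, with 1.09% over 2-fold. *Klf10* was at 29.0 and 25.2 CPM in Smad4-off and 40.7 and 36.4 CPM in Smad4-on cells (log2 change 0.51 ± 0.15, edgeR adjusted p = 0.199). *Klf5* was at 115 and 100.5 against 146 and 135 CPM (log2 change 0.39 ± 0.11, edgeR adjusted p = 0.184), and *Klf6* at 241 and 217 against 329 and 249.6 CPM (log2 change 0.32 ± 0.09, edgeR adjusted p = 0.202). The Smad4 states did not overlap for any of these 3 genes, none of which passed. Separation of 2 libraries from 2 adds little to these p-values, and its share over all genes was not counted.

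*Klf4* again differed by line under SB505124. It was at 113 CPM in Smad4-off and 278 CPM in Smad4-on cells of B73, and at 167 and 165 CPM in B87, so that the fitted log2 change of 0.78 ± 0.43 (edgeR adjusted p = 0.521) rested on B73. Log2 changes were 0.40 ± 0.18 for *Klf2*, 0.21 ± 0.12 for *Klf3*, 0.22 ± 0.16 for *Klf7* and 0.19 ± 0.10 for *Klf13*. They were -0.11 ± 0.11 for *Klf9* and -0.09 ± 0.15 for *Klf11*, and adjusted p for these 6 ran from 0.429 to 0.856 in edgeR. The comparisons above share libraries in pairs, so their values stand side by side and are not independent.

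**Figure D4:**
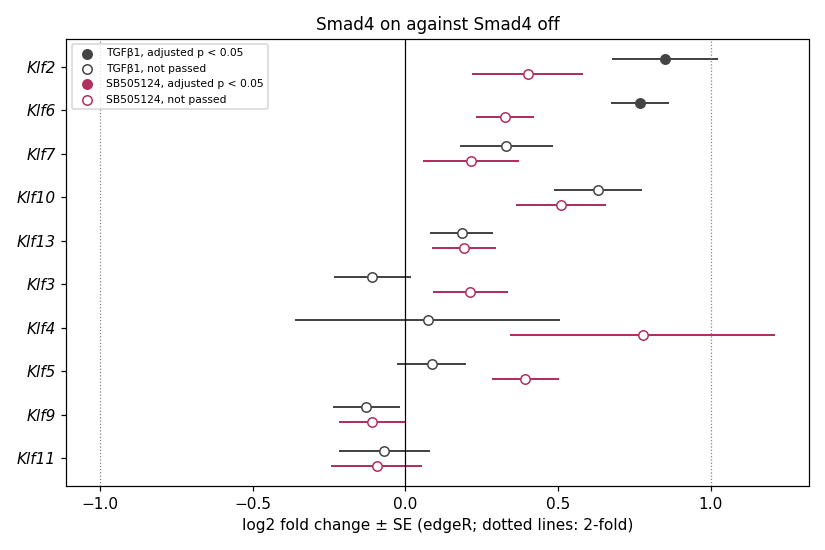
Fitted log2 fold change of Smad4-on against Smad4-off cells for the 10 members (x axis), with SE bars, under TGFβ1 (gray) and SB505124 (red). Filled symbols passed an adjusted p of 0.05 in edgeR, which only *Klf2* and *Klf6* under TGFβ1 did, and dotted lines mark 2-fold.

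Fitted over the 4 conditions, the largest line difference of a member was 1.43-fold (*Klf4*), which did not pass. In edgeR 6 members had an unadjusted p under 0.05, against 31.8% of all genes. Single conditions differed more for *Klf4*. In Smad4-on cells it had 278 (B73) and 165 (B87) CPM with SB505124, but 45.4 and 120.4 CPM with TGFβ1. *Klf5* and *Klf6* were lower in B87 than in B73 over the 4 conditions, and no member was higher, against 9.68% of all genes lower and 8.92% higher. The log2 difference was -0.31 ± 0.08 for *Klf5* (edgeR adjusted p = 0.0374) and -0.24 ± 0.07 for *Klf6* (edgeR adjusted p = 0.0484), and *Klf6* did not pass with a filter of 10 counts in every library. With 1 library left out, *Klf6* never kept its call, and the results of *Klf5* and *Klf4* depended on the Smad4-on SB505124 libraries. Leaving out either library of a group gives nearly the same line estimate, so the 8 fits are not 8 separate checks. Over the alternatives run, the log2 difference was -0.36 to -0.24 for *Klf5* and -0.28 to -0.18 for *Klf6*. In the list of 14 epithelial genes, 9 of the 10 tested were lower in B87, with a median log2 difference of -2.00 against -0.01 for all genes tested.

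The response to TGFβ1 was also compared between the lines. No member and no gene passed in edgeR (0% of all genes), 4 members and 1198 genes (8.38%) had an unadjusted p under 0.05, and DESeq2 called 0 members and 55 genes. The 4 members were *Klf4*, with a log2 difference of B87 from B73 of 1.24 ± 0.44, *Klf10* (0.43 ± 0.12), *Klf13* (0.28 ± 0.09) and *Klf5* (-0.31 ± 0.10), with adjusted p from 0.542 to 0.578 in edgeR. *Klf4* passed this test when no genes were filtered out (edgeR adjusted p = 0.00463). For the response to Smad4, 0.406% of all genes and no member passed in edgeR. No member had an unadjusted p under 0.05, against 9.85% of all genes, and DESeq2 called 0 members and 158 genes. The difference for *Klf4* was -0.43 ± 0.61 (edgeR adjusted p = 0.881). The *Klf4* result here depended on the Smad4-on TGFβ1 libraries. Leaving out that of either line gives nearly the same fit, so these are not separate checks. Over the alternatives run the difference ranged from -1.47 to 0.71.

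**Figure D5:**
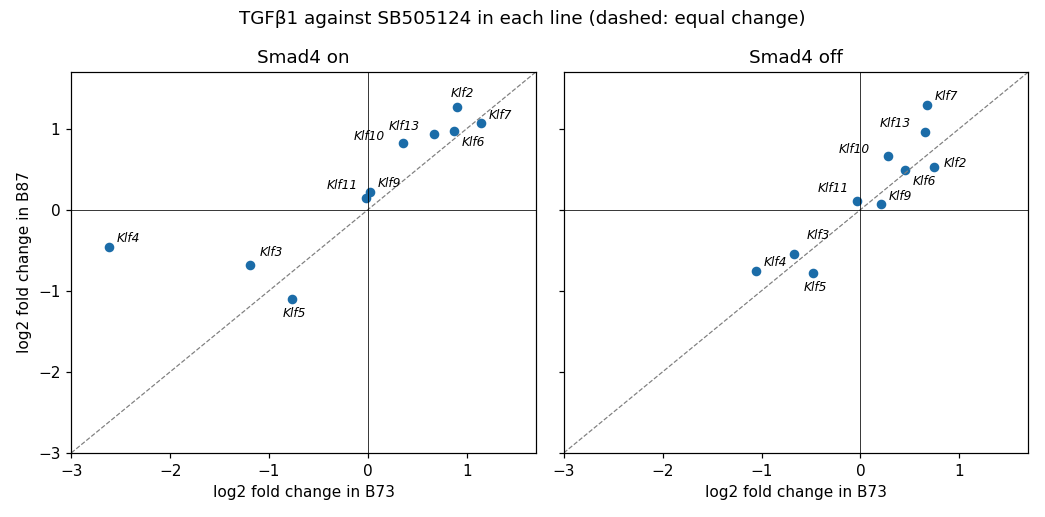
Log2 fold change of TGFβ1 against SB505124 in line B73 (x axis) and line B87 (y axis) for the 10 members (log2 CPM, prior count 2), with Smad4 on at the left and Smad4 off at the right. Points on the dashed line changed equally in both lines. *Klf4* in Smad4-on cells lies farthest from it (-2.61 in B73 and -0.46 in B87).

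The table also holds 16 other KLF and SP genes, of which 10 were tested, and 3 changed with TGFβ1 in Smad4-on cells, 1 higher and 2 lower, where 15.6% of all genes rose and 17.6% fell, with a median log2 change of 0.09 against -0.02 for all genes. *Klf8*, a repressor that also binds CtBP, was 0.702 and 0.291 CPM (B73 and B87) with SB505124 and 3.32 and 0.816 CPM with TGFβ1 (log2 change 1.95 ± 0.40, edgeR adjusted p = 0.0103). *Klf15* was 0.486 and 4.62 CPM against 0.102 and 0.357 CPM (log2 change -3.27 ± 0.69, edgeR adjusted p = 0.0116). With TGFβ1 the *Klf15* level in B73 lay below the floor, which was 0.153 CPM in that library. Its log2 change was -1.56 in B73 and -3.38 in B87. Both genes are scarce beside the members, and neither passed in edgeR with no block for the line (adjusted p = 0.166 and 0.129). *Sp1*, the ubiquitous GC-box factor, was lower in Smad4-on (log2 change -0.31 ± 0.08, edgeR adjusted p = 0.0203) and Smad4-off cells (-0.37 ± 0.08, edgeR adjusted p = 0.0236), the 1 call in Smad4-off cells, where 6.24% of all genes fell. It lies outside the naming rule and was chosen after its values were seen, and its call in Smad4-off cells was lost with no block (edgeR adjusted p = 0.0849). With Smad4 none of the 10 passed under either agent, and in edgeR 3 had an unadjusted p under 0.05 with TGFβ1 (23.7% of all genes) and 0 with SB505124 (12.6%).

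Among 13 genes for KLF corepressors, acetyltransferases and ubiquitin ligases, 6 rose and 1 fell with TGFβ1 in Smad4-on cells, none over 2-fold, where 15.6% and 17.6% of all genes did. The genes named here were chosen after their values were seen. *Ctbp2*, a corepressor partner of KLF3, rose by a log2 change of 0.72 ± 0.10 (edgeR adjusted p = 0.00208), *Sin3b* by 0.60 ± 0.09 (edgeR adjusted p = 0.00309) and *Fbxw7*, part of a ligase that degrades KLF2 and KLF5, by 0.83 ± 0.14 (edgeR adjusted p = 0.00446). Their relatives *Ctbp1* (-0.03 ± 0.08, edgeR adjusted p = 0.799) and *Sin3a* (-0.10 ± 0.11, edgeR adjusted p = 0.520) did not pass. Neither did so with Smad4 under TGFβ1 (edgeR adjusted p = 0.867 and 0.416). *Kat2b*, an acetyltransferase, fell (-0.67 ± 0.10, edgeR adjusted p = 0.00262). In Smad4-off cells 1 rose (*Smurf1*, 0.57 ± 0.07, edgeR adjusted p = 0.00476) and 1 fell (*Kat2b*, -0.44 ± 0.10, edgeR adjusted p = 0.0282), where 6.96% and 6.24% of all genes did. *Ctbp2* (0.49 ± 0.10, edgeR adjusted p = 0.0336) and *Sin3b* (0.45 ± 0.09, edgeR adjusted p = 0.0327) were also higher with Smad4 under TGFβ1, where 3.52% of all genes were higher. No gene of the list passed under SB505124 in edgeR, where 2 had an unadjusted p under 0.05 (12.6% of all genes). With no block for the line, the calls of *Ctbp2* and *Sin3b* with Smad4 (edgeR adjusted p = 0.210 and 0.137) and both calls in Smad4-off cells (0.132 for *Smurf1* and 0.0899 for *Kat2b*) were lost.

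Immediate-early genes were examined beside the members. Of 14 such genes 8 rose with TGFβ1 when Smad4 was on and 7 when it was off, none fell, and the other 6 and 7 did not pass, where 15.6% and 6.96% of all genes rose. With Smad4 under TGFβ1, 9 did not pass and 5 were higher (*Fos*, *Fosb*, *Jun*, *Junb*, *Ier3*, of which *Fos* and *Jun* were named after their values were seen). In that comparison 3.52% of all genes were higher. All 5 calls were lost in edgeR with no block for the line, with adjusted p from 0.154 to 0.636. The summed level of all 14 genes was 236 to 313 CPM in the 4 SB505124 libraries, 591 to 752 CPM in the 2 Smad4-off TGFβ1 libraries and 979 to 1088 CPM in the 2 Smad4-on TGFβ1 libraries. *Junb* rose by a log2 change of 3.20 ± 0.15 in Smad4-on cells (edgeR adjusted p = 5.78e-05) and *Ier3* by 2.26 ± 0.14 (edgeR adjusted p = 0.000114). The part of the immediate-early genes in the rise of *Klf2*, *Klf6* and *Klf10* was not tested.

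Of 10 epithelial genes tested, 4 were lower with TGFβ1 in Smad4-on cells, 1 was higher and 5 did not pass, where 17.6% of all genes fell and 15.6% rose. Those lower were *Cdh1*, the E-cadherin gene (log2 change -2.31 ± 0.46, edgeR adjusted p = 0.00936), *Krt19* (-2.33 ± 0.22, edgeR adjusted p = 0.000454), *Ocln* and *Elf3*. With no block for the line these 4 did not pass in edgeR, with adjusted p from 0.0568 to 0.650. The gene that was higher was *Cldn4*, at 0 counts in the 4 SB505124 libraries and at 46.2 and 3.26 CPM with TGFβ1 in Smad4-on cells. In Smad4-off cells *Krt19* was lower, *Cldn4* higher and 8 did not pass, where 6.24% of all genes fell and 6.96% rose. Under TGFβ1 *Cldn4* was the only 1 of the 10 that passed with Smad4 (edgeR), where 3.52% of all genes were higher and 3.28% lower. DESeq2 with the line did not make this call (adjusted p = 0.316). With no block for the line, edgeR made none of these calls on *Cldn4* (adjusted p = 0.0875 and 0.338 for TGFβ1 with Smad4 on and off, and 0.478 for Smad4) nor that on *Krt19* in Smad4-off cells (0.344). Their part in the fall of *Klf4* and *Klf5* was not tested.

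For the 3 members with the widest range of group means, the genes most alike in pattern were found by Pearson's r of log2 CPM after removal of each line's mean, over 8 libraries and 14291 other genes. They were *Slc18b1* (r = 0.990), *Abhd16a* (0.989) and *Arhgap12* (0.982) for *Klf4*, and *Ppp1r15a* (r = 0.993), *Cdr2* (0.992) and *Rraga* (0.992) for *Klf2*. For *Klf7* they were *Stxbp4* (r = 0.995), *Rnf44* (0.995) and *Gm44652* (0.994). The 8 points share 4 conditions, so such values are common: r exceeded 0.9 with 237 genes for *Klf4*, 1011 for *Klf2* and 1297 for *Klf7*.

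The gene models of the members add what the counts cannot show. On GRCm38 the table places *Klf6* at chr13:5861482-5870394, *Klf4* at chr4:55527143-55532466, *Klf5* at chr14:99298691-99315036 and *Klf2* at chr8:72319033-72321656. The others are *Klf3* (chr5:64803388-64832901), *Klf7* (chr1:64029447-64122282), *Klf9* (chr19:23141226-23166911), *Klf10* (chr15:38291463-38300706), *Klf11* (chr12:24651274-24662789) and *Klf13* (chr7:63886351-63938915). Their longest coding transcripts in GENCODE M21 have 2 exons in *Klf9* and *Klf13* and 6 in *Klf3*, and they encode 244 residues in *Klf9* to 502 in *Klf11*. The pentamer ATTTA, the core of AU-rich elements that shorten mRNA life, occurred 18 times in the 3′ UTR of *Klf7* (2.87 per kb) and 1 time in that of *Klf4* (1.02 per kb), against a median of 1.25 per kb over 11845 expressed genes. It did not separate members that rose from those that fell: *Klf13* had 0.582 per kb and *Klf5* 2.34. Stretches of 75 bases, the read length, were specific to the member for 9 of 10 genes, and in *Klf3* 1 of 11530 was shared. On the opposite strand Gm26649 shares 3196 exon bases with *Klf7* and Gm20033 shares 404 with *Klf3*, with at most 0 and 15 counts in any library.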

How the data were processed

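Messenger RNA of 8 cultures was sequenced as 75-base single reads from stranded poly(A) libraries (TruSeq). Per the labels and the study's methods, the tools were FastQC 0.11.5, Trimmomatic 0.36, STAR 2.5.3a and featureCounts 1.6.3, with GRCm38 (mm10). The strand and multimapping settings of the counting are not given in the sources used here. The authors deposited raw counts per gene and a transcript length in bases, with no normalization. Counts of all 8 columns were used as deposited, and lengths served only for CPM per kb.

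The main test was edgeR 4.0.16 (quasi-likelihood F-test, TMM, filterByExpr, limma 3.58.1, R 4.3.3) with the 4 groups and the line as terms, fitted on all 8 libraries, with Benjamini-Hochberg adjustment over all 14301 genes. SE was taken as the size of the log2 change over the root of its F statistic. Changes within a line are differences of log2 CPM with a prior count of 2. The study used DESeq2 with a 2-fold limit; DESeq2 1.42.0 was an alternative here, with size factors, low-count filters, the 4 libraries compared alone, no line term, and leaving out each library or line. The numbers 73 and 87 name the lines and pair the libraries; deviations of one line from the group means correlated at 0.642 to 0.774 over 6 pairs of groups. The models have 3 residual degrees of freedom, and 2 where a line-by-response term is added. On simulated counts for Smad4 on against off under TGFβ1 (13990 genes, 200 changed by 2 on the log2 scale), 88.5% were recovered and 5.85% of calls were false. The largest change of a member in that comparison was 0.85 (*Klf2*), so the simulation does not show how often changes of the members' size are missed.

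1 allele that all groups share is not reported here. The members and gene lists were chosen with earlier results of these data known. The genes named are all 10 members; of each list at most 5 with an adjusted p under 0.05 and a change over 2-fold in 1 of the 4 comparisons of Smad4 state or treatment, by size; and the 3 genes most alike in pattern to each of 3 members. Markers were named to check the label of the cells, by their levels, and other genes named are said to be chosen after their values were seen. The floor of 3 counts covers counting error only. Promoter windows are from RefSeq on GRCm38.p6, and gene models from GENCODE M21.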

Additional observations from a re-analysis of the deposited data

How the results depend on the processing

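The counts of members that passed moved as follows. For Smad4 on against off under TGFβ1 the count of 2 became 0 in edgeR with no replicate block for the line, 3 (with *Klf10*) with DESeq2 size factors, in DESeq2 with the line, with no filter on low counts and with the 4 libraries alone, and 0 to 2 when 1 library was left out. For TGFβ1 against SB505124 in Smad4-off cells the count of 5 became 1 in edgeR and 3 in DESeq2 with no replicate block, 8 with no filter, 7 with the 4 libraries alone, and 0 to 6 when 1 library was left out. In Smad4-on cells the count of 8 stayed at 7 or 8 under every alternative run. Under SB505124 the count of 0 for Smad4 became 1 (*Klf10*) with no filter. For the lines, the count of 2 became 1 with at least 10 counts in every library and 0 to 2 with 1 library left out. Differences between lines in the TGFβ1 response went from 0 to 1 (*Klf4*) with no filter, and those in the Smad4 response from 0 to 0 to 1 (*Klf4*) with 1 library left out. The cause of these shifts was not tested. Counts over all genes moved as well, between the alternatives that kept every library: from 973 to between 43 (edgeR, no replicate block) and 1887 (no filter) for Smad4 under TGFβ1, from 228 to between 2 and 792 under SB505124, from 4751 to between 2180 and 5058 for TGFβ1 in Smad4-on cells, from 1888 to between 270 and 2655 or, with the 4 libraries compared alone, 2674 in Smad4-off cells, and from 28 to between 0 and 440 for the interaction. The fit with the size factors of DESeq2 moved the median of all genes by at most 0.0104 (log2).

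Log2 changes of members that passed kept their sign under all alternatives run. Signs turned for 12 values that had not passed when a library was left out, and some of these also when a whole line was left out. The ranges below cover both. For Smad4 under TGFβ1 the ranges were -0.61 to 0.57 for *Klf4*, -0.32 to 0.084 for *Klf3*, -0.036 to 0.21 for *Klf5* and -0.18 to 0.045 for *Klf11*. For Smad4 under SB505124 they were -0.22 to 1.49 for *Klf4*, -0.28 to 0.067 for *Klf9* and -0.20 to 0.016 for *Klf11*. For TGFβ1 in Smad4-on cells they were -0.015 to 0.26 for *Klf9* and -0.053 to 0.18 for *Klf11*, and in Smad4-off cells -0.058 to 0.15 for *Klf11*. The *Klf4* interaction ran from -1.56 to 0.30 and its Smad4 response by line from -1.47 to 0.71. The smallest member count was 81 (*Klf2*).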
